A study of Mus musculus with 8 samples.

Results

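Xenobiotic metabolism genes are the enzymes that oxidise, hydrolyse and conjugate drugs, dietary compounds and reactive products of the body's own lipids. They were followed here in the brown adipose tissue of mice. The set held 192 of the 41388 genes in the count tables. Its members were chosen by gene symbol as the protein-coding genes of the cytochrome P450 families (Cyp, with Cyp51 of sterol synthesis left out), the glutathione S-transferases (the Gst alpha, mu, pi, theta, omega, zeta and kappa classes), the UDP-glucuronosyltransferases (Ugt), the sulfotransferases (Sult), the flavin mono-oxygenases (Fmo), the carboxylesterases (Ces) and the paraoxonases (Pon). The set was selected on this same comparison of genotypes with its results already known, so its counts and fold changes are given as a description, with adjusted p-values from a fit over all genes, and nothing is read from how they compare with the background of all genes.

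RNA depleted of rRNA was sequenced from brown fat of 8 mice labelled C57BL/6J, held at room temperature and fed regular chow. In the 4 ANKO mice, floxed alleles of Nampt were combined with a Cre recombinase under the promoter of adiponectin, a hormone made by white and brown adipocytes alike. The 4 WT mice, labelled wild type, carried the floxed alleles as well. The mice's age is not given in the sources used here. Nampt makes nicotinamide mononucleotide, the precursor of NAD+, from nicotinamide, and the comparison asks how brown fat differs when adipocytes lack it.

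As background, detoxification is often described in phases. P450s, which receive electrons from NADPH through the reductase Por, and flavin mono-oxygenases insert oxygen, while carboxylesterases and paraoxonases cleave esters and lactones. Transferases then attach glutathione, glucuronic acid or sulfate, and membrane pumps export the products. The liver is the main site of this chemistry. In fat, several members act on the tissue's own fatty acids, sterols, retinoids and amines. Many are known as targets of the nuclear receptors Nr1i3 (CAR), Nr1i2 (PXR) and Ppara, of the aryl hydrocarbon receptor Ahr, or of Nfe2l2 (Nrf2), which answers to electrophiles.

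A set of 6 promoters shows the stretch of DNA beside the members on which the results turn: the 3 paraoxonases, which are neighbours, Cyp1b1, known as an Ahr target, Cyp2b10, known as a CAR target, and Gsta3, the glutathione transferase that rose. Each is a window of 300 bases around the start annotated in RefSeq (GRCm38.p6), most of it upstream of that start, on the gene's own strand. By the gene bounds given below, however, most of the Pon2 window lies inside the gene. Capitals mark 2 short motifs found by script on either strand, GCGTG (core of the element bound by Ahr with Arnt) and TGACNNNGC (core of the antioxidant response element). The promoters lie at chr6:5193897-5194196 (Pon1), chr6:5256184-5256483 (Pon3), chr6:5298291-5298590 (Pon2), chr17:79715012-79715311 (Cyp1b1), chr7:25897408-25897707 (Cyp2b10) and chr1:21240335-21240634 (Gsta3).
Pon1: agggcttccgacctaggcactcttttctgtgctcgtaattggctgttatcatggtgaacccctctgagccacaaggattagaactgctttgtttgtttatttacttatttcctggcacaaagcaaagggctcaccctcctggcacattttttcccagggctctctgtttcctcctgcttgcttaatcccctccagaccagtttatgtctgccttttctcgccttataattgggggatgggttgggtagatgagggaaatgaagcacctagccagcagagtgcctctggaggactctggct
Pon3: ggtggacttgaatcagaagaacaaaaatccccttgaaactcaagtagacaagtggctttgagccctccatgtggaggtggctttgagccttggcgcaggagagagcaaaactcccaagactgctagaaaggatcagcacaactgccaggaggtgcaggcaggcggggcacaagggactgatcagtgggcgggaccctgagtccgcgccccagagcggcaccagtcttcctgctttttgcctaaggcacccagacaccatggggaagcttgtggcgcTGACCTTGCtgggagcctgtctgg
Pon2: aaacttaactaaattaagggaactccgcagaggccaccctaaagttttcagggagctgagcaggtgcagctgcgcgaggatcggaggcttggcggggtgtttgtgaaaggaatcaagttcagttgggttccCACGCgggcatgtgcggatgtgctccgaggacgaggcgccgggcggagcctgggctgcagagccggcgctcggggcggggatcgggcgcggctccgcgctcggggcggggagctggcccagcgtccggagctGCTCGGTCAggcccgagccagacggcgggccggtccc
Cyp1b1: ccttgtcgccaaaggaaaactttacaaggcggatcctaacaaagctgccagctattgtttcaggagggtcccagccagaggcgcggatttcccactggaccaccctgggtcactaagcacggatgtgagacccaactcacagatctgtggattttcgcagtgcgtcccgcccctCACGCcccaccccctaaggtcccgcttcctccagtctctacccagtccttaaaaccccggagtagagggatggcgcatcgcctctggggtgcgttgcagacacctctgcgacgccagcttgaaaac
Cyp2b10: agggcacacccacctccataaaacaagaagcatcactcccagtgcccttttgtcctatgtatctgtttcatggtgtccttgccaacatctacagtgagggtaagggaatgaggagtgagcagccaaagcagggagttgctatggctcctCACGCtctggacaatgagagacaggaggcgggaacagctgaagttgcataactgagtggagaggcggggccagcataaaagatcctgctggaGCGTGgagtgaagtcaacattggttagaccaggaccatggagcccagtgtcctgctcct
Gsta3: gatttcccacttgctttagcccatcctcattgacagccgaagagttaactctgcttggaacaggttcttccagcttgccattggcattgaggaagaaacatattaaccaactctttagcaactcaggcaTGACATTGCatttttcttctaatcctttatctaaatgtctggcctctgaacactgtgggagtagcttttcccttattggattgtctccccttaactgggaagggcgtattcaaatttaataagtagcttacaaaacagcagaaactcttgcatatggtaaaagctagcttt

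The Pon1 promoter held neither motif. Pon3 and Gsta3 held 1 copy each of TGACNNNGC, Pon2 held 1 of each motif, Cyp1b1 held 1 copy of GCGTG and Cyp2b10 held 2. The TGACNNNGC copies of Pon3 and Pon2 lay inside the gene bounds given below, not upstream of them. Both motifs are common in windows of this length. GCGTG was present in 32.4% of all 32851 promoters in the table and in 15 of 57 promoters (26.3%) of the 50 tested members with an entry. TGACNNNGC was present in 12.4% of all promoters and in 7 of the members' 57 (12.3%). By direction, GCGTG was in 5 of 20 promoters of members that rose, 2 of 16 of those that fell and 8 of 21 of those not called, and TGACNNNGC was in 3, 4 and 0 of them. Some genes have more than 1 promoter entry. A match describes letters in this window and not a bound site.

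The libraries held 21771276 to 49697156 counts in WT and 5738067 to 26426476 in ANKO, and without rRNA rows the ratio of the median totals, WT over ANKO, was 3.36. At this depth 3 counts were worth 0.0626 CPM (counts scaled by library size) in the deepest library and 0.527 CPM in the shallowest, counting error only. Nampt was 508 ± 42.2 CPM in the WT mice and 72.3 ± 4.67 CPM in ANKO (SD, n = 4). Ucp1, the uncoupling protein that defines brown fat, was read at 5949 ± 2602 CPM in the WT mice and 1103 ± 631 CPM in ANKO.

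Markers of other cell types moved with genotype and are given as sums over marker lists. Brown adipocyte markers summed to 7689 to 15487 CPM in the WT mice and 1184 to 3883 in ANKO, and 9 of 10 fell. General adipocyte markers ran from 14864 to 18006 and from 6110 to 9211 CPM, with 9 of 10 lower and Lep higher. Skeletal muscle markers ran from 130 to 8538 CPM in the WT mice and from 33075 to 43249 in ANKO, with 9 of 12 higher. Macrophage markers ran from 164 to 235 and from 1296 to 1788 CPM (11 of 12 higher), and fibroblast and progenitor markers from 1023 to 1427 and from 4297 to 7877 CPM (8 of 10 higher). Lymphocyte markers ran from 5.10 to 6.58 and from 30.7 to 50.9 CPM (9 of 10 higher), and airway and gland epithelium markers from 5.10 to 39.6 and from 166 to 382 CPM (all 6 tested of 8 higher, with the airway markers Scgb1a1 and Scgb3a1 too low to test). Endothelial markers ran from 1172 to 1366 and from 922 to 1114 CPM (1 of 10 higher, 4 lower), and Schwann cell markers from 168 to 187 and from 141 to 193 CPM (4 of 8 higher, 1 lower). Hepatocyte markers, which matter because liver is rich in these enzymes, summed to 5.35 to 18.8 CPM in the WT mice and 12.1 to 43.4 CPM in ANKO, and 1 of the 5 tested, Fgb, rose. The 4 WT libraries were unalike: WT1 and WT2 had 3050 and 8538 CPM of muscle markers, and WT3 and WT4 had 304 and 130. In bulk tissue, fewer cells of a type and less RNA per cell cannot be told apart. The part of these cell types in the members' differences was not tested, apart from a fit that took the summed muscle markers as a covariate, which is itself confounded with genotype, since every ANKO library had more muscle marker signal than every WT library.

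**Figure D1:**
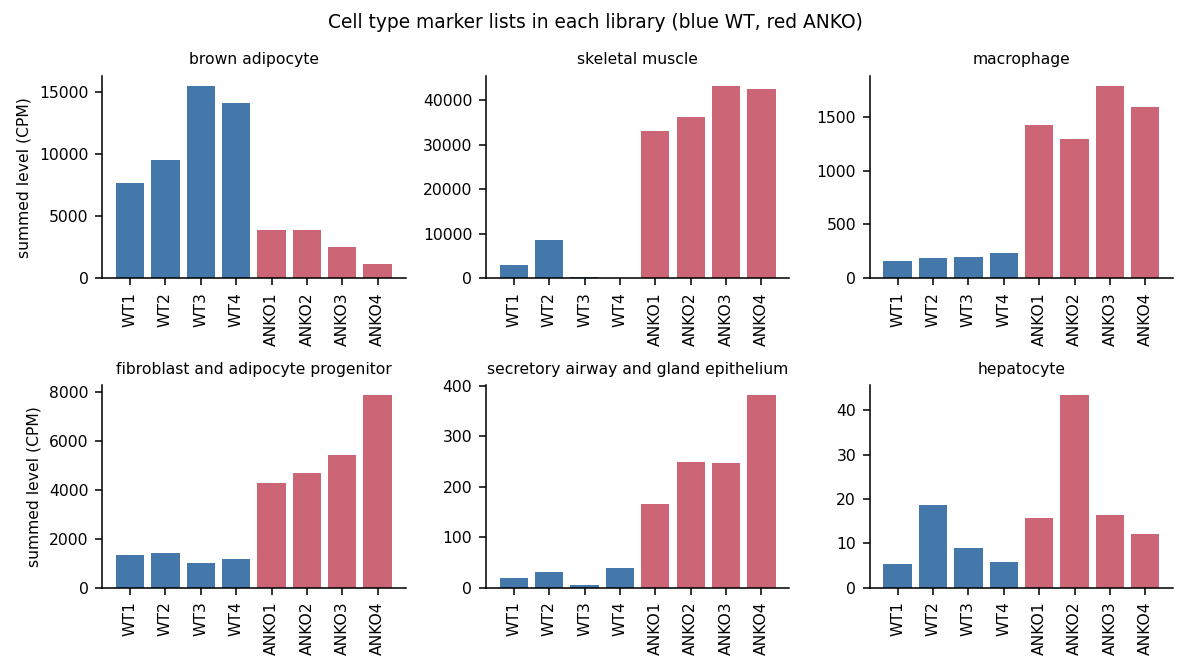
Bars give the summed level (CPM) of 6 marker lists in each of the 8 libraries, WT in blue and ANKO in red. Every ANKO library lay below every WT library for brown adipocyte markers and above every WT library for skeletal muscle, macrophage, fibroblast and epithelial markers, while the hepatocyte sums of the groups overlapped.

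Brown fat expressed only a part of this enzyme repertoire. Of the 192 members, 35 had 0 counts in every library and another 93 had too few counts to test, 91 of them with under 60 counts summed over the 8 libraries. The remaining 64 entered the test. A low gene enters it more easily when it is high in one group, so the tested members are not a sample of all members. No member of the Ugt2 family (9 genes) and none of the Cyp2c family (15 genes), both known as abundant in liver, was tested. Gstp1, Gstp2 and Gstp3, pi class neighbours on chromosome 19, had 0 counts in all 8 libraries. How the authors' counting treated reads that map to several places is not given in the sources used here, so these 0 counts do not show that the genes were silent.

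The members' RNA was lower in ANKO as a whole. Their summed level was 4051 ± 221 CPM in the WT mice and 1717 ± 231 CPM in ANKO (SD, n = 4), which is 42.4% of the WT sum. The libraries ran from 3872 to 4352 CPM in the WT mice and from 1415 to 1975 CPM in ANKO, without overlap. The most abundant member, Ces1d, decided much of this, and without it the sums were 2314 ± 111 and 1213 ± 117 CPM. By class, ANKO held 29.5% of the WT sum for Ces, 35.2% for Fmo, 42.8% for Pon, 48.7% for Cyp families 1 to 3, 50.3% for Gst, 81.0% for Cyp family 4, 95.0% for Cyp families 5 and above, 105% for Sult and 444% for Ugt. The glucuronosyltransferases, whose sum was 4.13 ± 1.47 CPM in the WT mice and 18.4 ± 3.43 CPM in ANKO without overlap, were the scarcest class in both genotypes.

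**Figure D2:**
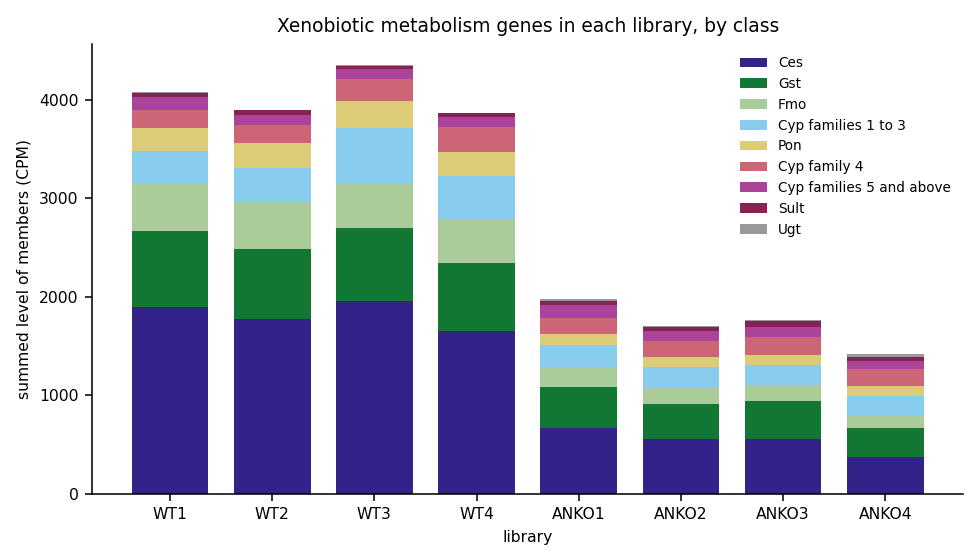
Each stacked bar gives the summed level (CPM) of the members in 1 library, divided by enzyme class. The 4 WT bars reach 3872 to 4352 CPM and the 4 ANKO bars 1415 to 1975 CPM, with Ces the largest class in all 8 libraries.

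Per kb of gene length, which allows genes to be compared, WT brown fat was dominated by few members. Ces1d stood at 733 CPM per kb, followed by Gstz1 at 203, Cyp2e1 at 99.4, Fmo1 at 97.4, Gstk1 at 58.3, Gsta4 at 57.1, Pon3 at 53.2, Gstm1 at 44.7, Gsto1 at 43.2 and Cyp4b1 at 39.9 CPM per kb. These 10 made up 80.8% of the members' CPM per kb in WT and 63.7% in ANKO, and Ces1d alone 41.4% and 28.8%. Of the 10, 8 fell in ANKO, and Gstm1 and Cyp4b1 did not pass the test.

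Among the 64 tested members, 23 were called higher in ANKO, 20 lower and 21 neither, at an adjusted p under 0.05 by edgeR. Over all 16705 genes tested, 58.2% were called, 30.6% higher and 27.6% lower. The WT and ANKO libraries did not overlap for 41 members, 20 with ANKO higher and 21 with ANKO lower, and over all genes 28.7% and 26.4% were apart in those directions. The members' median log2 fold change was 0.09, and that of all genes -0.01. Of the 43 called members, 32 changed at least 2-fold, 20 higher and 12 lower. The calls differed by abundance. Of the 31 members with a mean of at least 10 CPM, 4 rose and 18 fell (median log2 fold change -0.56), and of the 33 below it 19 rose and 2 fell (median 1.13). A scarce gene can enter the test through its ANKO level alone, so rises among the scarce are partly fixed by the filter and are a description only. The same split stood over all genes, where 22.7% of the abundant rose and 39.8% fell (median -0.18), and 40.8% of the scarce rose and 11.9% fell (median 0.42). The number of members that rose depended on depth and on the muscle covariate: it was 11 with all libraries thinned to the lowest total, 14 with a mean of at least 1 CPM required and 8 with the muscle covariate, which also reduced the calls over all genes from 9726 to 4228. The number that fell was 17, 20 and 16 in those fits. They tested 46, 51 and 64 members, so part of the drop in rises in the first 2 came from members that were not tested. A scarce member given below as without a call with thinned counts may have gone untested there. The 8 that rose with the muscle covariate were Ces2g, Cyp1b1, Cyp2ab1, Cyp3a57, Cyp4f18, Gsta3, Ugt1a2 and Ugt1a7c, and the members whose fall was no longer called were Cyp2d22, Cyp2u1, Gstm5 and Gsto2.

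**Figure D3:**
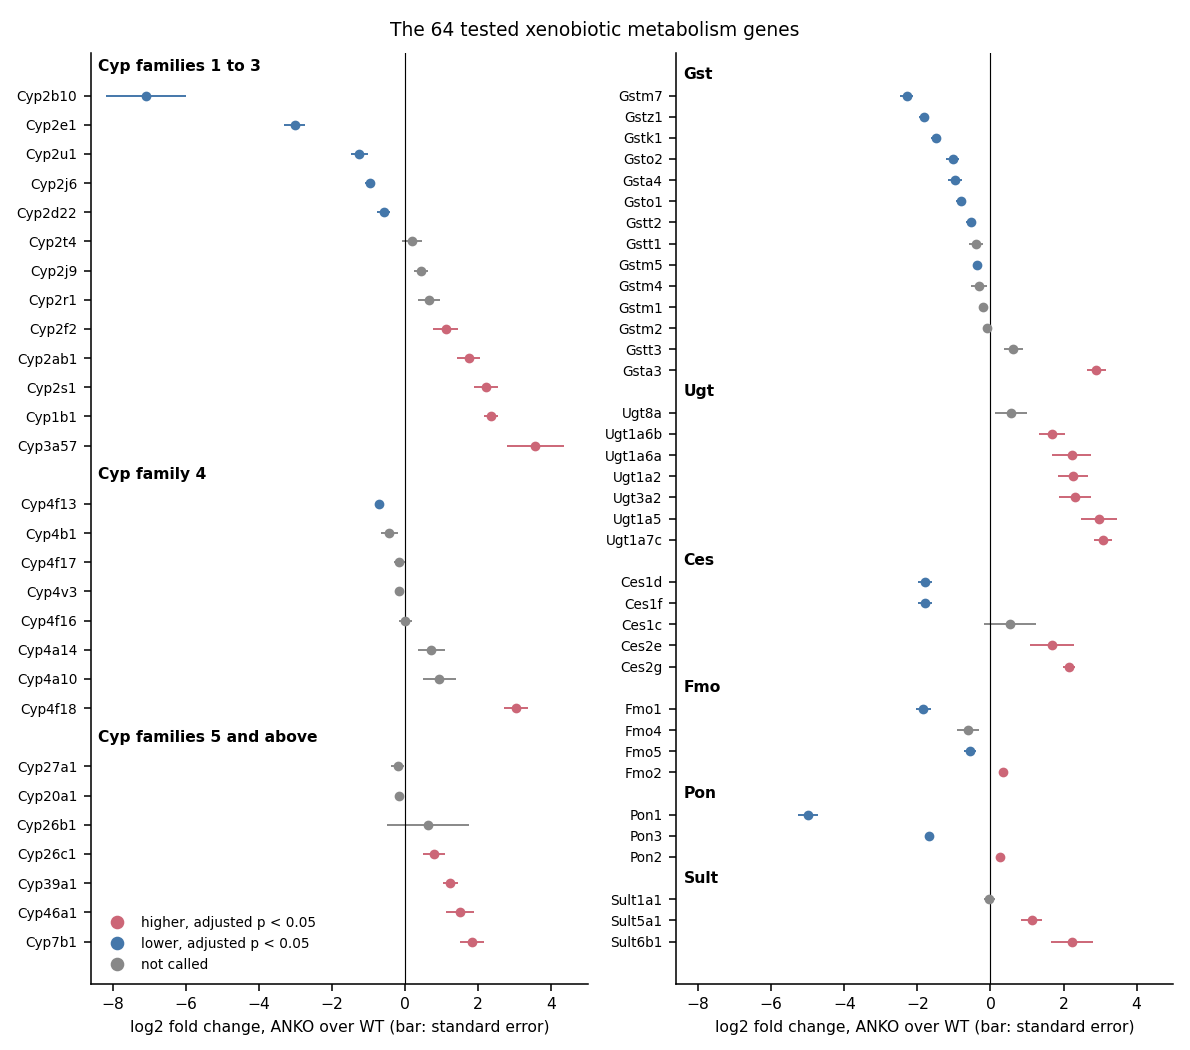
Points give the log2 fold change (ANKO over WT) of each of the 64 tested members with its standard error, grouped by class, red for called higher, blue for called lower and grey for not called. Gst members lie mostly to the left of 0 and Ugt members to the right, and Cyp2b10 and Pon1 lie farthest left, at -7.10 and -5.00.

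The P450s of families 1 to 3, which metabolise most drugs, split evenly. Of 61 members, 13 were tested, with 5 higher and 5 lower. Their abundant members fell, and those that rose, other than Cyp1b1, were scarce. Cyp2e1 (ENSMUSG00000025479, chromosome 7, 140763739 to 140774975, plus strand, GRCm38), which oxidises ethanol, acetone and small solvents, was the most abundant P450 per kb in WT, at 99.4 CPM per kb, and was at 12.2 CPM per kb in ANKO, below Cyp27a1 at 31.8 and Cyp4b1 at 29.7. Its WT libraries held 133, 149, 291 and 153 CPM and its ANKO libraries 25.9, 17.1, 17.8 and 28.6 CPM. The groups lay far apart, and WT3 stood above the other WT libraries. Cyp2e1 was 8.13-fold lower in ANKO (log2 fold change -3.02, SE 0.29, edgeR adjusted p 2.67e-05).

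Cyp2b10 (ENSMUSG00000030483, chromosome 7, 25897620 to 25926624, plus strand), the classical phenobarbital-inducible P450 of mouse liver, had the largest fall of any tested member. It was read at 11.0, 18.4, 88.3 and 94.7 CPM in the WT libraries and at 0.383, 0.346, 0.284 and 0.583 CPM in the ANKO libraries. These ANKO levels rest on 10, 3, 3 and 4 counts. WT3 and WT4 had several times the level of WT1 and WT2, the same pairs that differed in muscle and brown adipocyte markers. The fitted difference was 137-fold (log2 fold change -7.10, SE 1.09, edgeR adjusted p 0.00109). It was -5.25 without WT3 and WT4 and -4.12 with the muscle covariate, so the fall was called in each but its size was not stable. Cyp2b9, Cyp2b13, Cyp2b19 and Cyp2b23, its neighbours and close relatives, were not tested.

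The other abundant members of these families fell less. Cyp2u1, a fatty acid hydroxylase, went from 46.7 ± 4.35 to 19.4 ± 6.94 CPM (log2 fold change -1.25), although an antisense gene overlaps 23.5% of its exonic bases. Cyp2j6, of a family of arachidonic acid epoxygenases, went from 41.2 ± 2.08 to 21.0 ± 4.89 CPM (-0.96), and its paralog Cyp2j9 from 5.78 ± 1.21 to 7.68 ± 1.25 CPM without a call (0.43, edgeR adjusted p 0.0717). Cyp2j9 was called in the fits with thinned counts, without WT1 and without both WT1 and WT2. Cyp2d22 went from 75.9 ± 5.84 to 50.3 ± 12.5 CPM (-0.59). The calls of Cyp2u1 and Cyp2d22 were lost with the muscle covariate (edgeR adjusted p 0.0829 and 0.172), where their log2 fold changes were -0.98 and -0.59 and their SEs grew to 0.37 and 0.30.

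Cyp1b1 (ENSMUSG00000024087, chromosome 17, 79706953 to 79715041, minus strand), which oxidises polycyclic hydrocarbons and estradiol and is expressed mainly outside the liver, went the other way. Its WT libraries held 13.0, 12.2, 13.9 and 16.3 CPM and its ANKO libraries 59.5, 53.1, 70.9 and 101 CPM. The lowest ANKO library stood well above the highest WT library. Cyp1b1 was 5.10-fold higher (log2 fold change 2.35, SE 0.20, edgeR adjusted p 6.43e-06), and 2.64 on the log2 scale with the muscle covariate. Cyp1a1, the best known Ahr target, did not pass the filter: it was at 0.0990, 0.155, 5.22 and 0.0683 CPM in the WT mice and at 0.115, 0.230, 0.284 and 0 CPM in ANKO, with only WT3 raised. The library without a count, ANKO4, allows a level of up to 0.527 CPM.

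The other 4 members that rose in these families were low. Cyp3a57, of the family that metabolises the widest range of drugs in liver, was at 0.0495, 0, 0.122 and 0.592 CPM in the WT mice and 2.10, 5.76, 1.80 and 1.60 CPM in ANKO, from 1, 0, 4 and 26 counts and from 55, 50, 19 and 11 counts. All 4 ANKO libraries exceeded all WT libraries, and most of its WT counts came from WT4. Its log2 fold change was 3.57 (SE 0.77, edgeR adjusted p 0.0031). It was 5.32 without WT4, 6.54 without WT3 and WT4 and 10.98 with the muscle covariate (SE 1.73), called in each, so its size was not stable. Cyp2s1, Cyp2ab1 and Cyp2f2 rose by 2.21, 1.75 and 1.11 on the log2 scale from WT levels of 0.315, 0.315 and 0.795 CPM. These 3 were without a call with thinned counts, where scarce members could go untested. Cyp2f2 was not called with the replicate block, without ANKO3 or without both WT3 and WT4 either. The calls of Cyp2s1 and Cyp2f2 were also lost with the muscle covariate. Cyp2f2, known from airway club cells and liver, has an antisense gene over 13.5% of its exonic bases.

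The family 4 P450s hydroxylate the far end of fatty acids. Of 20 members 8 were tested, and 1 rose, 1 fell and 6 were not called. Cyp4f13 fell from 47.1, 40.7, 42.9 and 38.4 CPM in WT to 25.4, 26.3, 25.4 and 25.9 CPM in ANKO. Its ANKO libraries were close to identical and lay below all WT libraries (log2 fold change -0.71, SE 0.09, edgeR adjusted p 8.41e-05). Cyp4f18, a leukotriene hydroxylase known from myeloid cells, rose from 0.396, 0.427, 0.427 and 1.05 CPM to 5.47, 4.26, 4.73 and 5.39 CPM. The ANKO libraries were alike and all above WT4, the highest of WT, and the difference was 8.19-fold (log2 fold change 3.03, SE 0.32, edgeR adjusted p 3.09e-05). Macrophage markers rose in the same libraries, as given above.

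Cyp4b1, the most abundant family 4 member, was at 54.4, 70.6, 104 and 129 CPM in the WT mice and 63.9, 59.8, 69.6 and 73.1 CPM in ANKO. The groups overlapped, because WT1 and WT2 lay at the ANKO level and WT3 and WT4 above it (log2 fold change -0.43, SE 0.24, edgeR adjusted p 0.144). It was called lower in the fits without WT1 and without both WT1 and WT2. Cyp4a10 and Cyp4a14, fatty acid hydroxylases known as Ppara targets, were low in both genotypes and not called, at 0.300 ± 0.166 and 0.640 ± 0.174 CPM and at 0.438 ± 0.148 and 0.773 ± 0.256 CPM. Cyp4a10 was called with the replicate block and without WT2. Cyp4v3, whose exonic bases overlap another gene over 36.3% of their length, was 60.6 ± 1.90 and 54.4 ± 4.19 CPM (log2 fold change -0.15, edgeR adjusted p 0.133).

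The P450s of families 5 and above mostly act on sterols, bile acid precursors and retinoic acid. Of 18 members 7 were tested, and 4 rose and 3 were not called. Cyp27a1, the mitochondrial sterol hydroxylase, was the most abundant, at 91.1, 76.8, 71.5 and 79.4 CPM in the WT mice and 88.4, 73.2, 70.6 and 44.0 CPM in ANKO. The groups overlapped, with ANKO4 lowest (log2 fold change -0.20, SE 0.18, edgeR adjusted p 0.359). Cyp20a1, an orphan P450, was 20.8 ± 0.859 and 18.7 ± 1.14 CPM and was not called either (edgeR adjusted p 0.17).

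Cyp7b1, an oxysterol hydroxylase, rose from 0.644, 0.699, 0.397 and 0.273 CPM to 1.57, 1.38, 1.99 and 2.04 CPM. The groups were apart (log2 fold change 1.83, SE 0.33, edgeR adjusted p 0.001), but the call was lost with the muscle covariate (log2 fold change 0.71, edgeR adjusted p 0.289). With thinned counts Cyp7b1 did not pass the filter and was not tested. Cyp39a1, another oxysterol hydroxylase, rose from 1.68 ± 0.311 to 3.96 ± 0.696 CPM, Cyp46a1, the cholesterol hydroxylase known from neurons, from 0.428 ± 0.164 to 1.09 ± 0.504 CPM, and Cyp26c1, which clears retinoic acid, from 0.580 ± 0.159 to 1.02 ± 0.220 CPM. All 3 calls were lost with the muscle covariate, and those of Cyp46a1 and Cyp26c1 also with thinned counts and without both WT3 and WT4. With thinned counts these 2 may have gone untested. Cyp46a1 was not called without ANKO1 either, and Cyp26c1 was not called with DESeq2, with every gene with a count tested, without both WT1 and WT2, or without any 1 of WT1, WT3, WT4, ANKO2, ANKO3 and ANKO4. Cyp26b1, its relative, was at 17.8, 0.738, 1.16 and 0.637 CPM in the WT mice and 10.4, 4.73, 8.23 and 6.12 CPM in ANKO. WT1 alone exceeded every ANKO library, and Cyp26b1 was not called (edgeR adjusted p 0.663). It was called higher in ANKO in the fits without WT1 and without both WT1 and WT2, so the missing call rested on WT1.

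The flavin mono-oxygenases, which oxidise nitrogen and sulfur in amines and thioethers, were led by Fmo1 (ENSMUSG00000040181, chromosome 1, 162829561 to 162866548, minus strand). Fmo1 was at 428, 436, 400 and 413 CPM in the WT mice and 153, 126, 117 and 70.4 CPM in ANKO. The WT libraries were close to each other and the ANKO libraries less so, with ANKO4 lowest, and the groups were far apart. It was 3.59-fold lower (log2 fold change -1.84, SE 0.20, edgeR adjusted p 4.04e-05). Fmo5, which inserts oxygen beside ketones, fell from 15.7 ± 3.40 to 10.5 ± 1.55 CPM (-0.56). This call was lost with thinned counts (-0.51) and without WT1 and WT2 (-0.29, edgeR adjusted p 0.124), and the value was -1.06 with the muscle covariate. Fmo2, the neighbour of Fmo1 and best known from lung, was at 26.2, 23.3, 32.7 and 27.6 CPM and at 38.0, 28.7, 34.4 and 38.9 CPM. Its groups overlapped, its rise was small (log2 fold change 0.35, SE 0.13, edgeR adjusted p 0.0401), and it was lost in 10 of 18 other fits. Fmo4 was not called (1.36 ± 0.340 and 0.871 ± 0.240 CPM), but was called in the fit without WT4.

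Of 19 carboxylesterases 5 were tested, and 2 of the Ces1 subfamily fell, 2 of the Ces2 subfamily rose and 1 was not called. Ces1d (ENSMUSG00000056973, chromosome 8, 93166068 to 93197838, minus strand), also called triacylglycerol hydrolase for its action on stored fat, fell from 1795, 1686, 1880 and 1589 CPM in WT to 624, 524, 522 and 343 CPM in ANKO. Every ANKO library was far below every WT library, and ANKO4 was lowest. The difference was 3.45-fold (log2 fold change -1.79, SE 0.19, edgeR adjusted p 3.28e-05), and -1.78 with the muscle covariate. Its neighbour Ces1f fell to the same degree, from 101, 83.2, 80.7 and 59.1 CPM to 30.6, 20.5, 24.1 and 17.6 CPM (log2 fold change -1.79, SE 0.20), again with no overlap.

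In the Ces2 subfamily, Ces2g (chromosome 8, 104961718 to 104969537, plus strand) went from 1.73, 1.75, 1.56 and 1.82 CPM to 7.16, 6.91, 9.08 and 7.43 CPM. The spread within each genotype was small beside the difference, which was 4.44-fold (log2 fold change 2.15, SE 0.16, edgeR adjusted p 3.20e-06). Ces2e rose from 0.371 ± 0.227 to 1.21 ± 0.685 CPM with overlapping libraries (edgeR adjusted p 0.0343). Its call was lost with the replicate block, the muscle covariate and thinned counts, without WT3 or WT4, without ANKO2 or ANKO3, and without both WT3 and WT4. With thinned counts Ces2e may have gone untested. Ces1c was not called, at 0.385 ± 0.258 and 0.651 ± 0.646 CPM.

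The 3 paraoxonases, lactonases that lie side by side on the minus strand of chromosome 6, differed from each other in size and direction. Pon1 (5168090 to 5193946), which in blood rides on high density lipoprotein, was at 22.4, 25.0, 34.3 and 21.9 CPM in the WT mice and 0.650, 1.27, 0.946 and 0.437 CPM in ANKO. The ANKO levels rest on 17, 11, 10 and 3 counts, so ANKO4 was at the floor of 3 counts and the other ANKO libraries were above it, and all lay far below every WT library. It was 32.0-fold lower (log2 fold change -5.00, SE 0.27, edgeR adjusted p 4.75e-07). Pon3 (5220852 to 5256286) fell from 164, 184, 193 and 179 CPM to 62.1, 59.0, 58.7 and 44.7 CPM. It stayed readily detected in ANKO at a 3.20-fold lower level (log2 fold change -1.68, SE 0.12, edgeR adjusted p 2.02e-06). Pon2 (5264147 to 5298455), an intracellular member expressed in most tissues, was at 38.7, 38.8, 41.8 and 42.2 CPM and at 48.1, 42.3, 47.4 and 55.7 CPM. Its groups were apart by little, from 42.2 in WT to 42.3 in ANKO. Its log2 fold change was 0.26 (SE 0.10, edgeR adjusted p 0.0411), and the call was lost in 13 of 18 other fits, while those of Pon1 and Pon3 stood in all 18. 

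The glutathione transferases leaned downward. Of 22 members 14 were tested, and 8 fell, 1 rose and 5 were not called. Gstz1 (ENSMUSG00000021033, chromosome 12, 87147707 to 87164721, plus strand), the maleylacetoacetate isomerase of tyrosine breakdown, fell from 376, 307, 361 and 309 CPM to 105, 89.5, 107 and 79.4 CPM. All ANKO libraries lay below all WT libraries at 3.55-fold less (log2 fold change -1.83, SE 0.13, edgeR adjusted p 2.75e-06). Gstk1, found in mitochondria and peroxisomes, went from 54.2 ± 1.40 to 19.1 ± 4.11 CPM (-1.49). Gsta4, which conjugates the lipid aldehyde hydroxynonenal, went from 54.7 ± 3.23 to 27.5 ± 8.62 CPM (-0.98). The omega class members Gsto1 and Gsto2, neighbours on chromosome 19, went from 85.0 ± 4.96 to 48.0 ± 8.70 CPM (-0.82) and from 6.32 ± 0.385 to 3.09 ± 0.711 CPM (-1.03, not called with the muscle covariate or with thinned counts).

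Within the mu class, 2 of 5 tested members fell. Gstm7 (chromosome 3, 107926334 to 107931817, minus strand) was at 17.1, 14.5, 18.5 and 12.2 CPM in the WT mice and 3.67, 3.23, 3.03 and 2.48 CPM in ANKO. It was 4.90-fold lower without overlap (log2 fold change -2.29, SE 0.18, edgeR adjusted p 4.52e-06), the largest fall among the glutathione transferases. Gstm5 went from 27.2 ± 1.33 to 21.0 ± 2.74 CPM (-0.37), with an antisense gene over 13.9% of its exonic bases, and was not called with the muscle covariate or without WT3 and WT4, at log2 fold changes of -0.34 and -0.36 with larger SEs. Gstm1, Gstm2 and Gstm4 were not called, at 62.3 ± 3.80 and 53.6 ± 6.92 CPM, 23.3 ± 2.53 and 21.7 ± 0.865 CPM, and 11.2 ± 0.792 and 8.84 ± 2.79 CPM. Mu class genes are close copies, and reads could be split among them. In the theta class, Gstt2 fell from 24.9 ± 4.42 to 17.1 ± 1.42 CPM (-0.53, and -0.40 without a call with thinned counts), and Gstt1 (16.9 ± 2.52 and 12.7 ± 3.49 CPM) and Gstt3 (3.51 ± 1.29 and 5.31 ± 1.21 CPM, with another gene over 19.9% of its exonic bases) were not called. Gstt3 was called in the fits without WT1, without ANKO2 and without both WT1 and WT2.

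Gsta3 (ENSMUSG00000025934, chromosome 1, 21240589 to 21265661, plus strand), an alpha class enzyme, was the glutathione transferase that rose. It was at 4.41, 4.31, 2.35 and 4.53 CPM in the WT mice and 42.6, 22.9, 27.9 and 21.7 CPM in ANKO. The groups were far apart, with WT3 below the other WT libraries and ANKO1 above the other ANKO libraries. The difference was 7.47-fold (log2 fold change 2.90, SE 0.27, edgeR adjusted p 1.62e-05) and 2.75 on the log2 scale with the muscle covariate. Since Gsta4 fell as Gsta3 rose, the alpha class sum was 58.6 ± 3.78 CPM in the WT mice and 56.3 ± 16.0 CPM in ANKO, with overlapping libraries.

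The glucuronosyltransferases rose from a low level. Of 21 members 7 were tested, 6 rose and Ugt8a, which makes the galactolipid of myelin, was not called. In the fit without both WT1 and WT2, Ugt8a was called. The Ugt1a genes are alternative first exons spliced to shared exons on chromosome 1 (88055388 to 88220002), and the 5 tested overlap other genes on 50.3% to 60.6% of their exonic bases, so their counts are not independent of each other and their split among genes is uncertain. Ugt1a7c had the largest rise, from 0.842, 0.971, 0.549 and 0.819 CPM to 7.92, 5.30, 5.49 and 8.16 CPM. Each ANKO library was several times above each WT library (8.48-fold, log2 fold change 3.08, SE 0.24, edgeR adjusted p 4.65e-06). Ugt1a6b, the most abundant per kb in WT, rose from 1.29, 1.24, 0.488 and 1.21 CPM to 4.71, 1.96, 3.78 and 2.62 CPM. It was also apart in all libraries (log2 fold change 1.69, SE 0.36), but not called with the muscle covariate (1.34, edgeR adjusted p 0.156). Ugt1a5, Ugt1a2 and Ugt1a6a rose by 2.97, 2.25 and 2.22 on the log2 scale from WT means of 0.202 to 0.382 CPM, and Ugt3a2 by 2.32 from 0.265 CPM. These 4 were without a call when counts were thinned to the lowest library total, where scarce members could fail the filter and go untested. Ugt1a5, Ugt1a6a and Ugt3a2 were not called with the muscle covariate either. The 9 Ugt1a genes together summed to 2.74 ± 1.03 CPM in the WT mice and 15.0 ± 3.55 CPM in ANKO.

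Of 21 sulfotransferases 3 were tested, and 2 rose. Sult1a1, the phenol sulfotransferase and the only abundant member, was at 43.2, 40.3, 37.0 and 42.2 CPM in the WT mice and 32.4, 32.3, 51.3 and 42.8 CPM in ANKO. ANKO libraries lay on both sides of the WT range (log2 fold change -0.04, SE 0.15, edgeR adjusted p 0.842). Sult5a1 rose from 1.55 ± 0.490 to 3.45 ± 1.02 CPM (1.13), a call lost with the muscle covariate. Sult6b1 rose from 0.198, 0.466, 0.0610 and 0.0683 CPM to 1.11, 0.922, 0.662 and 0.583 CPM. The groups were apart but at the level of few counts (log2 fold change 2.23, SE 0.58, edgeR adjusted p 0.00742), and the value was 3.09 without WT2, 1.31 without WT3 and WT4 and 0.13 with the muscle covariate, the last 2 without a call.

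**Figure D4:**
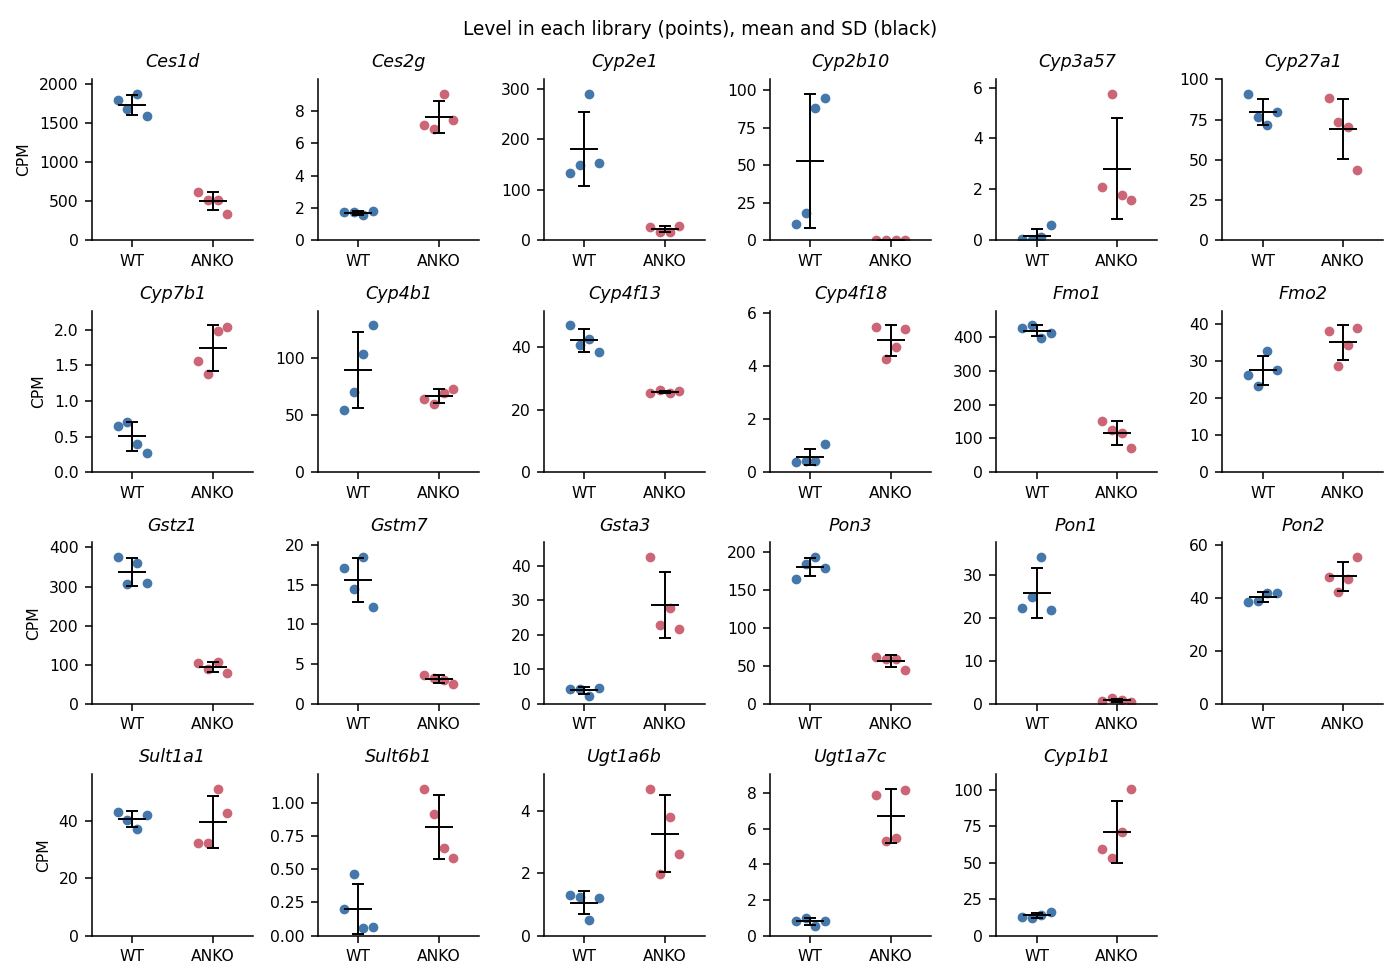
Each panel gives the level (CPM, linear axis from 0) of 1 member in the 4 WT (blue) and 4 ANKO (red) libraries as points, with the mean and SD in black. Ces1d, Fmo1, Gstz1 and Pon3 are tight and separate, Cyp2b10 and Cyp4b1 spread widely among WT libraries, and Sult1a1 and Cyp27a1 overlap.

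Members of a family often sit in a row on a chromosome. With gaps of up to 1 Mb allowed, 26 rows held 159 of the 192 members and 45 of the tested ones. In 9 rows at least 2 members were called, and in 3 of these the calls went both ways: Fmo1 fell beside Fmo2 on chromosome 1, Pon1 and Pon3 fell beside Pon2 on chromosome 6, and Cyp2b10 fell in the row on chromosome 7 where Cyp2s1 and Cyp2f2 rose. The calls of Fmo2 and Pon2 stood in only 8 and 5 of 18 other fits, and those of Cyp2s1 and Cyp2f2 have the limits given above. On chromosome 8, the 2 members called in the Ces1 row fell and the 2 called in the Ces2 row rose, with the limits on Ces2e given above.

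Genes that regulate or feed these enzymes were taken from lists made by function. Over all genes tested 30.6% rose and 27.6% fell, and the counts per list are a description beside those shares. Of 9 tested receptors and partners, 4 fell and 1 rose (median log2 fold change -0.20). Ppara, the fatty acid receptor, fell from 583 ± 37.9 to 125 ± 42.8 CPM (-2.22), and Rxrb, a partner receptor, fell (-0.73), while Rxra rose (0.31). Ahr (16.0 ± 2.52 and 24.0 ± 12.7 CPM), Nfe2l2 (90.2 ± 10.4 and 81.7 ± 6.41 CPM), its inhibitor Keap1 (58.0 ± 1.80 and 59.3 ± 7.53 CPM) and Nr1i3 (1.447 ± 0.440 and 0.862 ± 0.442 CPM) were not called, and Nr1i2 was too low to test. Of 10 genes for electron supply and heme, 3 rose and 2 fell (median 0.11). Alas1, the entry enzyme of heme synthesis, went from 497 ± 144 to 209 ± 38.0 CPM (-1.25) and Por, the P450 reductase, from 315 ± 42.1 to 183 ± 29.0 CPM (-0.78), while the cytochrome b5 reductases Cyb5r3 and Cyb5r1 rose (1.25 and 0.32).

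Of 13 genes of glutathione synthesis and turnover, 7 rose and 1 fell (median 0.39). Slc7a11, the cystine importer, went from 0.187 ± 0.181 to 15.8 ± 6.00 CPM (6.43), and Chac1, which degrades glutathione, rose (3.33), while the secreted peroxidase Gpx3 fell from 1656 ± 406 to 153 ± 48.3 CPM (-3.44). Another list held 8 glutathione transferases and related genes outside the symbol rule, Alox5ap and Ptges among the related genes. Of these 8, 6 rose and 1 fell (median 1.70). Hpgds and Ltc4s, which make prostaglandin D and leukotriene C, rose by 3.48 and 2.15, and microsomal Mgst1 fell (-0.61). Of 8 genes supplying glucuronide and sulfate donors, 2 rose and 4 fell (median -0.30). Ugdh and Ugp2, which make UDP-glucuronic acid and its precursor, rose (0.78 and 0.93), and Papss2, which makes the sulfate donor, and the sulfate transporter Slc26a2 fell (-0.85 and -0.41).

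Of 21 other hydrolases, reductases and dehydrogenases, 11 rose and 5 fell (median 0.45). The aldehyde dehydrogenase Aldh1a1 and the quinone reductase Nqo1, a known Nfe2l2 target, rose by 2.27 and 2.57. Maob and Aldh2, which clear amines and acetaldehyde, fell (-1.44 and -0.98). Maoa, the paralog of Maob, went the other way: Maob went from 125 ± 9.43 to 46.0 ± 7.84 CPM and Maoa from 18.4 ± 0.933 to 101 ± 35.2 CPM (2.45). Of 7 tested methyl- and acetyltransferases, 2 rose and 3 fell (median -0.20), with Inmt and As3mt higher (1.69 and 0.45) and Hnmt and Nat1 lower (-1.25 and -1.57). Of 13 tested transporters, 6 rose and 2 fell (median 0.16). The exporters Abcc3 and Abcc5 rose (2.71 and 1.29), and the uptake carriers Slc22a3 and Slc22a5, for organic cations and carnitine, fell (-1.51 and -1.65). All changes in these lists are log2 fold changes called by edgeR.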

How the data were processed

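Brown fat of 8 mice was flash frozen, and its total RNA was depleted of rRNA (Ribo-Zero Gold), per the labels' protocols. The submitters' processing notes name STAR 2.0.4b, featureCounts 1.45 (Subread) and the build GRCm38. Which annotation release and strand setting were used, and how multi-mapping reads were treated, is not given in the sources used here, so genes that overlap, lie antisense or are close copies share reads that cannot be told apart. The authors deposited, per the file headers, a raw count, a CPM and an RPKM for each of 41388 genes in each library. The deposited CPM and RPKM were not used, and the CPM values printed are the counts over TMM-scaled library sizes. Levels per kb divide this CPM by the gene length in the files.

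Symbols and biotypes came from GENCODE M21 by Ensembl ID, which matched 40340 genes. All 192 members overlapped their GENCODE coordinates. The 355 rRNA rows (2.83% to 3.53% of counts in WT, 0.801% to 1.13% in ANKO) were left out. The 8 mice were grouped by title and genotype label, and the series design names 4 animals per group. No 2 libraries agreed within sampling noise (lowest chi-square per degree of freedom 6.95). ANKO was compared with WT in edgeR 4.0.16 (R 4.3.3) by the robust quasi-likelihood test with filterByExpr, TMM and no covariate, with Benjamini-Hochberg adjustment over 16705 genes. The fit's biological coefficient of variation was 20.6%. Each SE is the log2 fold change over the root of its F statistic, and errors of levels are SDs over 4 mice. PCR copies are not independent molecules, so floors of 3 counts cover counting error only. The gene test was also run on simulated data in which few genes differed, equally in both directions and at a fixed dispersion. Far more genes differed here, so that run does not show how the test behaves on these data.

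The members, the 8 pathway lists and the 10 cell type lists were chosen with earlier results of these data known. Named with values were tested members with a mean of at least 10 CPM and, in each class, the one highest in WT per kb and those with the largest called rise and fall, with up to 2 called genes per direction from each pathway list. Other members are named as counts require and were chosen after their values were seen, Cyp1a1, Cyp2j9, Cyp26b1 and the Cyp4a genes among them. Maoa was named beyond the limit for pathway lists, beside its paralog Maob, after its value was seen. Alternatives were other scalings, filters and thresholds, DESeq2 1.42.0, the replicate number as a block, the muscle marker level as a covariate, thinned counts, protein-coding nuclear genes alone and each library left out. Leaving out pairs of WT libraries, and leaving members with exon overlap of 10% or more out of the counts, were added after seeing the data. Promoters came from RefSeq (GRCm38.p6), with an entry for 50 of the 64 tested members. Figures were drawn with matplotlib 3.10.9.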

Additional observations from a re-analysis of the deposited data

Results flagged for a closer look

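In 9 of 96 groups of 4 libraries examined, over the named members and the class sums, 1 library's gap to the nearest of the others exceeded the 95% limit of Dixon's test on the group's range. Chance gives about 1 in 20 such groups. Among WT libraries, WT3 was high for Cyp2e1 at 291 CPM (the others 133 to 153) and low for Gsta3 at 2.35 CPM (the others 4.31 to 4.53) and for Ugt1a6b at 0.488 CPM (the others 1.21 to 1.29). WT2 was high for Cyp2j6 at 44.2 CPM, WT4 was high for Cyp4f18 at 1.05 CPM, and WT1 was high for the summed P450 families 5 and above at 133 CPM. Among ANKO libraries, ANKO4, the shallowest, was low for Gstk1 at 13.0 CPM (the others 20.8 to 21.7) and for Gstm5 at 16.9 CPM (the others 21.8 to 22.6), and ANKO2 was high for Cyp3a57 at 5.76 CPM. ANKO2 also had the highest hepatocyte marker sum, 43.4 CPM, and the part of other cells in the Cyp3a57 value was not tested.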

How the results depend on the processing

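The 39 named members gave 699 log2 fold changes under up to 18 alternatives, of which 658 kept their direction and side of the threshold, 34 were no longer called, 2 became called and 5 changed sign. The sign changes were in members without a call: Cyp4b1 was 0.50 with the muscle covariate and 0.075 without WT3 and WT4, and Sult1a1 was 0.018 with thinned counts and -0.190 to 0.053 with each library left out in turn, above 0 without ANKO1 and without ANKO2. The count of members higher was 23, and 14 with a mean of at least 1 CPM, 8 with the muscle covariate and 11 with thinned counts, where fewer members were tested in the first and last of these. All called genes numbered 4228 with the muscle covariate against 9726. Leaving out 1 library at a time gave 19 to 27 members higher, 20 to 21 lower, 42 to 48 without overlap and 8942 to 10470 called genes. The replicate numbers of the labels gave no sign of paired mice. The correlations of same-numbered deviations were 0.11, -0.01, 0.07 and -0.05, and not every library correlated best with its own number. With so few libraries, these correlations cannot exclude a pairing. With the replicate block, 22 members were higher and 20 lower, and 9239 genes were called. An adjusted p under 0.01 gave 18 higher and 17 lower. Without members that share 10% or more of their exonic bases with other genes, 17 were higher and 18 lower. Depth limits the scarce members most, because 3 counts were 0.527 CPM in ANKO4.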

Other observations

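Below the level that entered the test lay members known chiefly from liver. When every gene with a count was tested, 157 members entered and 52 were called, 32 higher and 20 lower. Over all genes, 10590 of 28024 were called in that fit, 54.7% of them higher. The calls gained over the main fit were 12, all higher in ANKO, each on few counts: Ces1a, Cyp2c23, Cyp2d9, Cyp2d11, Cyp2d26, Cyp3a11, Cyp4f15, Cyp4f39, Sult2b1, Ugt1a1, Ugt1a8 and Ugt1a9. They are a description only. Cyp3a11, the main P450 of the Cyp3a family in mouse liver, had 0, 4, 2 and 1 counts in WT and 8, 11, 7 and 2 in ANKO. Its highest library, ANKO2, was also the highest in hepatocyte markers, and the part of other cells in it was not tested. Sult2b1, a cholesterol sulfotransferase known from skin, had 5, 5, 5 and 11 counts in WT and 39, 3, 9 and 6 in ANKO, most of them in ANKO1. Ugt1a1, the bilirubin glucuronosyltransferase, had 4, 1, 0 and 5 counts in WT and 27, 4, 2 and 2 in ANKO. Its exonic bases overlap other genes over 82.7% of their length. The untested members together summed to 5.42 ± 2.37 CPM in WT and 11.99 ± 4.06 CPM in ANKO, with every ANKO library above every WT library.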
